A study of Mus musculus with 28 samples.

Results

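Hippocampal transcripts of cbp+/- mice were compared with those of wild-type littermates under standard cage conditions, without trichostatin A (TSA) and without novelty. The comparison used 10 of the 28 arrays of the series, 5 from cbp+/- mice and 5 from wild-type mice, chosen by their titles alone. Each genotype had 2 pools of naive mice (replicates 1 and 2) and 3 pools of vehicle-injected mice (replicates 3 to 5). The other 18 arrays were 9 cbp+/- and 9 wild-type arrays, with 3 arrays per genotype in each of 3 conditions. These were TSA, a histone deacetylase inhibitor, in the standard cage, vehicle with novelty, and TSA with novelty. The TSA dose was 2.4 mg/kg, 75 min before dissection, and novelty was 1 h alone in an unfamiliar box with objects. All mice were C57/DBA F1 hybrid females of 3 months, the controls were littermates of the treated mice, and each array held RNA pooled from 3 to 4 animals. The naive and vehicle control arrays also serve as controls of another experiment that was run in parallel, according to the series' design text. The cbp+/- mice carry 1 disrupted copy of Crebbp in all their cells, and the labels do not describe the allele further.

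CREB-binding protein (CBP), the product of Crebbp, is a lysine acetyltransferase and a transcriptional coactivator. It is recruited by phosphorylated CREB and by many other transcription factors, acetylates histones at promoters and enhancers, and shares most of its domains with p300, the product of Ep300. In neurons, synaptic activity raises calcium and cAMP, kinases such as CaMKIV and protein kinase A phosphorylate CREB, and immediate early genes and neuropeptide genes are then transcribed. Loss of 1 copy of CREBBP in humans causes Rubinstein-Taybi syndrome, and mice with 1 disrupted copy are used as its model.

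A cAMP response element (CRE) is the DNA motif to which CREB binds, and its full palindrome has the letters TGACGTCA on both strands. The following 300-base promoter windows, from RefSeq on GRCm38.p6, run from 250 bases before to 50 bases after the annotated start and are printed in the direction of transcription, with the full palindrome in capitals. Pcsk1 and Sst are known CREB targets, and Lekr1 was the named gene with this motif.
Pcsk1, chr13:75089607-75089906, plus strand: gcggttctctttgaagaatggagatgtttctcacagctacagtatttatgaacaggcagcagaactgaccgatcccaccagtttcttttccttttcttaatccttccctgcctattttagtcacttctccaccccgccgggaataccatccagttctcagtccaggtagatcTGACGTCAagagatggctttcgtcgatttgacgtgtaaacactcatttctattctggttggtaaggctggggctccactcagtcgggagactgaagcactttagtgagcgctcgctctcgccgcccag
Sst, chr16:23890795-23891094, minus strand: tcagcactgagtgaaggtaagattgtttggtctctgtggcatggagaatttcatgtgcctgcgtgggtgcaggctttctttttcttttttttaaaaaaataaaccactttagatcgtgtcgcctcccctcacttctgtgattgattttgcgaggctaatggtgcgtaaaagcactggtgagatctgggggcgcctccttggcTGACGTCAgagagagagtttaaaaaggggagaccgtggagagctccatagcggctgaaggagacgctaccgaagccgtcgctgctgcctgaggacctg
Lekr1, chr3:65665978-65666277, plus strand: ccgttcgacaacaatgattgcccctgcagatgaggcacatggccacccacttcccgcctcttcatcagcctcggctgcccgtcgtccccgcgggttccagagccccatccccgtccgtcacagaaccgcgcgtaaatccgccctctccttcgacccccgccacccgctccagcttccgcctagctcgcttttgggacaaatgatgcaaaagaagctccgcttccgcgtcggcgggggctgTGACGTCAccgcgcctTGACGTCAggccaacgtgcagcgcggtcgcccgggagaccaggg
The palindrome began 78 bases before the annotated start in Pcsk1 and 48 bases before it in Sst. Lekr1 held 2 copies, the first beginning 10 bases before the start. A full palindrome was present in 5 of 19 CREB target genes with a promoter window (26.3%), and in 424 of 15614 genes tested with a window (2.72%). It was present in 1 of 9 named genes that were higher in cbp+/- controls and in 0 of 8 named genes that were lower. The shorter half-site TGACG, searched on both strands and also contained in the full palindrome, was found in 84.2% of the CREB targets, 33.3% and 25% of the named higher and lower genes, and 28% of all genes with a window.

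The values are log2 expression levels, and a difference is the cbp+/- level minus the wild-type level of the same replicate number, averaged over pairs and given with its SE. Medians of the 10 control arrays lay between 5.46 and 5.58, and pairs of these arrays correlated at 0.9776 to 0.9952 across genes. Replicate number accounted for 76.2% of the variance among the 10 arrays and genotype for 4.68%. These shares are not adjusted for the number of groups, so noise alone would give replicate number the larger share and genotype some share. On the first principal component, with 37.6% of the variance, replicate number took 98% and genotype 0.0377%. cbp+/- replicate 3 stood apart in choroid plexus genes: their mean level was 6.99 in that array, against 5.07 to 5.57 in the other cbp+/- controls and 5.08 to 5.76 in wild-type controls. The mean level of markers of hippocampal neurons was 7.48 to 8.06 in cbp+/- and 7.55 to 8.20 in wild type for CA1, 7.43 to 7.63 and 7.50 to 7.66 for CA3, and 7.17 to 7.36 and 7.19 to 7.47 for dentate granule neurons. The 3 measured Y-linked genes averaged 3.17 to 3.28 in cbp+/- and 3.20 to 3.29 in wild type.

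Crebbp transcript was not lower in cbp+/- controls. Its level was 9.35, 9.26, 9.46, 9.77 and 9.16 in cbp+/- replicates 1 to 5, against 9.20, 9.27, 9.37, 9.55 and 9.06 in wild-type replicates 1 to 5. The groups overlapped, and the cbp+/- array was the higher one in 4 of 5 pairs. The difference was 0.11 ± 0.09 (95% interval -0.08 to 0.30, adjusted p = 1 with limma), which is a 1.08-fold level. An exact permutation test over the 252 splits of the 10 arrays gave p = 0.46, and one over the 32 sign patterns of the 5 pairs gave p = 0.125, where 0.0625 is the smallest that 5 pairs allow (both two-sided). In the other 3 conditions the difference was 0.25 ± 0.07 (adjusted p = 0.199 with limma), and cbp+/- was the higher in 8 of 9 pairs. The deposited values give 1 summary per transcript. Where its probes lie in relation to the disruption was not analysed here, so these levels do not check the genotype labels.

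**Figure D1:**
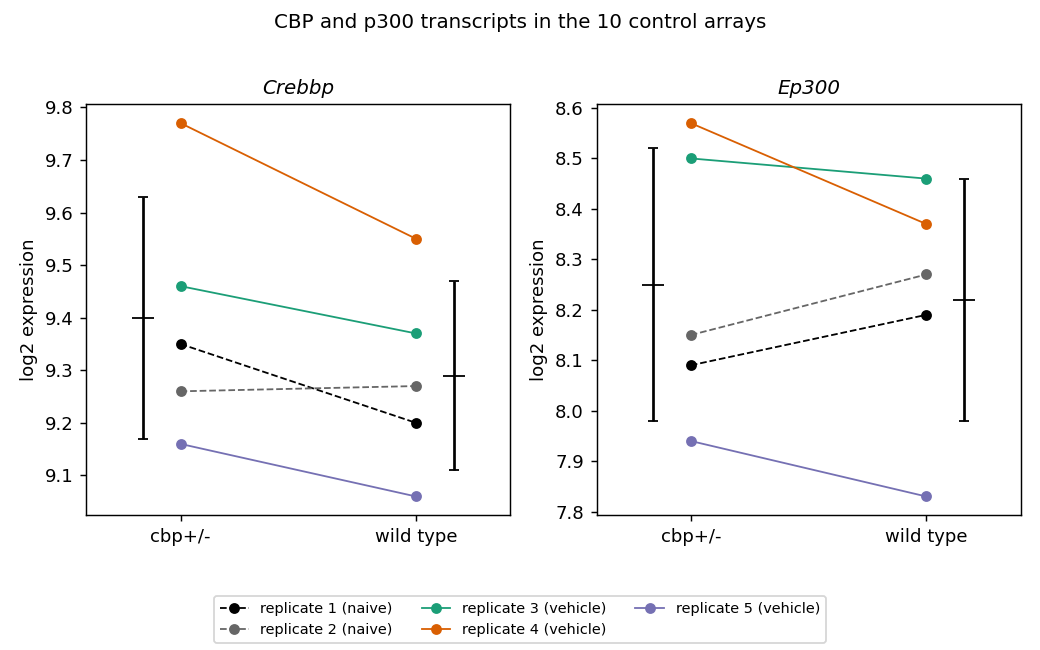
Levels of Crebbp and Ep300 in the 10 control arrays (log2 expression, y axis). Each line joins the cbp+/- and wild-type arrays of 1 replicate number, dashed for naive and solid for vehicle, and the bars beside them give the mean ± SD of 5 arrays. Crebbp averaged 9.40 in cbp+/- and 9.29 in wild type, and the lines slope both ways for Ep300.

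Ep300, the gene for p300, had levels of 8.09, 8.15, 8.50, 8.57 and 7.94 in cbp+/- replicates 1 to 5, against 8.19, 8.27, 8.46, 8.37 and 7.83 in wild-type replicates 1 to 5. The difference was 0.02 ± 0.09 (95% interval -0.16 to 0.21, adjusted p = 1 with limma), with exact permutation p-values of 0.881 over arrays and 0.688 over pairs, and its sign turned when replicate 4 was left out. Of the 17 lysine acetyltransferases measured, 12 had positive and 5 had negative differences, no unadjusted p was under 0.05, and they lay between -0.10 and 0.12 with a median of 0.02. The smallest p-values of the list belonged to Gtf3c4, a subunit of the RNA polymerase III factor TFIIIC, at 0.12 ± 0.08, and to Ncoa2, a nuclear receptor coactivator, at -0.10 ± 0.07.

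The genes that flank Crebbp on its chromosome were examined as a separate group. Of the 15 nearest genes sought on each side, 13 lay before and 15 after Crebbp in the RefSeq order with a tested transcript. Their differences ran from -0.13 to 0.19 with a median of 0.03, against a median of 0.00 over all genes. Nudt16l1 (0.16 ± 0.07) and 4930562C15Rik (0.19 ± 0.08) had p-values under 0.05 before adjustment, and both had an adjusted p of 1 with limma. At that unadjusted threshold 2 of the 28 genes were higher and 0 lower, against 1.65% and 1.91% of all genes. In the other 3 conditions Nudt16l1 differed by -0.05 ± 0.05 and 4930562C15Rik by 0.00 ± 0.06.

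Across the 19938 genes tested, 0 genes (0%) passed an adjusted p of 0.05 in the controls, and the lowest adjusted p was 0.464. Before adjustment, 328 genes (1.65%) were higher and 381 (1.91%) were lower in cbp+/- at an unadjusted threshold of 0.05, which is 3.56% of all genes. In simulated data, 4.94% to 5.1% of unchanged genes were under that threshold, so the count is not above what no difference would give. In all 5 pairs the same sign was found for 726 genes that were higher (3.64%) and 728 that were lower (3.65%). The 5 cbp+/- arrays lay above all 5 wild-type arrays for 42 genes (0.211%), and below all of them for 23 genes (0.115%). The 1st and 99th percentiles of the differences were -0.20 and 0.20, and the median half-width of a gene's 95% interval was 0.17. No gene described in the following paragraphs passed the test in the controls, and the named ones were chosen for small p-values and 1 sign in all 5 pairs, so their control values describe that choice.

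The named higher genes included 2 that are known from antiviral defence. Zc3hav1, the zinc-finger antiviral protein, had levels of 5.38, 5.39, 5.67, 5.35 and 5.16 in cbp+/- replicates 1 to 5, against 5.01, 5.10, 5.34, 5.03 and 4.90 in wild-type replicates 1 to 5. Every cbp+/- array was above its wild-type partner by 0.26 to 0.37, although the groups overlapped. The difference was 0.31 ± 0.06 (adjusted p = 0.464 with limma), a 1.24-fold level. Eif2ak2, the kinase PKR that is activated by double-stranded RNA and phosphorylates eIF2α, differed by 0.32 ± 0.07. Its 5 pair differences ran from 0.13 to 0.51, and averaged 0.39 over vehicle pairs and 0.20 over naive pairs. Ddx58, the RNA sensor RIG-I, differed by 0.19 ± 0.08 and was higher in 4 of 5 pairs. The 16 interferon-stimulated genes measured gave 12 positive and 4 negative differences with a median of 0.08, against 0.00 over all genes, and Ddx58 alone had p under 0.05 before adjustment. The median was 0.04 without pair 1 and 0.04 without pair 5, and in the other 3 conditions it was 0.02, with 0 of the 16 genes at an unadjusted p under 0.05 by limma.

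Nlrp5-ps, a pseudogene of the NLR family, had the largest difference among the named genes. Its levels were 7.84, 7.85, 7.33, 8.03 and 7.43 in cbp+/- replicates 1 to 5, against 7.32, 7.42, 6.51, 7.64 and 7.21 in wild-type replicates 1 to 5. Each cbp+/- array was above its partner, by 0.21 in pair 5 and by 0.81 in pair 3, and the groups overlapped. The difference was 0.47 ± 0.09 (95% interval 0.28 to 0.67, adjusted p = 0.464 with limma), a 1.39-fold level. Anxa4, an annexin that binds phospholipid in the presence of calcium, had levels of 6.11, 6.04, 5.94, 5.74 and 5.80 in cbp+/- replicates 1 to 5, against 5.59, 5.67, 5.45, 5.42 and 5.30 in wild-type replicates 1 to 5. It was the 1 gene of the 12 named higher genes whose groups did not overlap, and its difference was 0.44 ± 0.09 (adjusted p = 0.464 with limma).

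The other named higher genes had varied roles. Ddo, the oxidase of D-aspartate, differed by 0.36 ± 0.08, with pairs 3 and 4 (0.60 and 0.61) above the rest. As3mt, which methylates arsenite, differed by 0.32 ± 0.07, and Vwf, the endothelial von Willebrand factor, by 0.31 ± 0.08. Slc46a3, a lysosomal transporter, differed by 0.25 ± 0.07, Mfsd13b, of the major facilitator family, by 0.29 ± 0.07, and Lekr1 by 0.27 ± 0.06, or by 0.09 as the mean of all its transcript clusters. Mettl18, a protein histidine methyltransferase, differed by 0.31 ± 0.08, with 0.74 in pair 5 and 0.06 to 0.31 in the other pairs. The adjusted p of the 12 genes ran from 0.464 to 1 with limma.

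**Figure D2:**
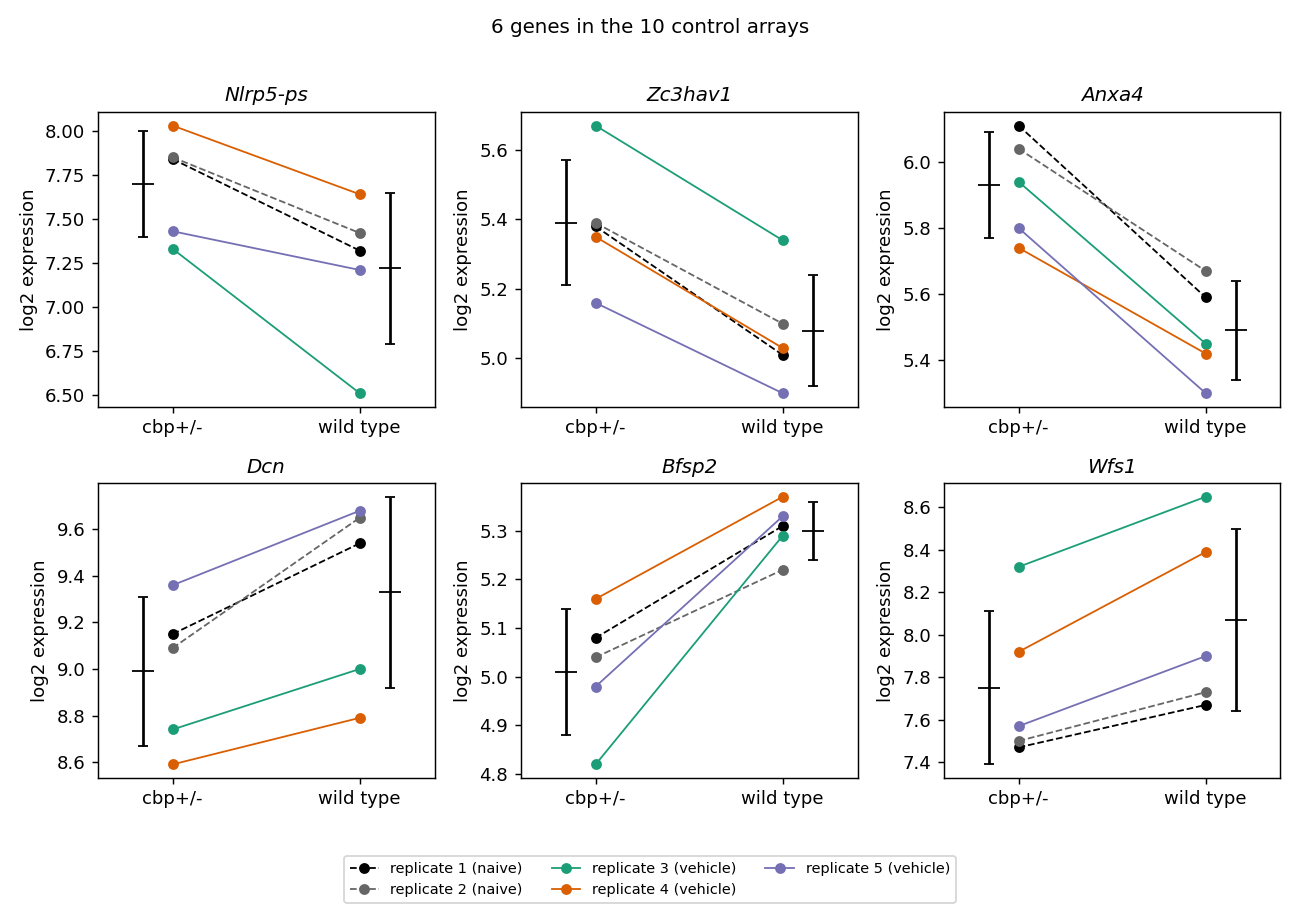
Levels of 6 genes in the 10 control arrays (log2 expression, y axis), with lines joining the cbp+/- and wild-type arrays of 1 replicate number and bars giving the mean ± SD of 5 arrays. All 5 lines fall to the right for Nlrp5-ps, Zc3hav1 and Anxa4 and climb to the right for Dcn, Bfsp2 and Wfs1, while only Anxa4 and Bfsp2 have groups that do not overlap.

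The named lower genes included secreted and extracellular proteins. Dcn encodes decorin, a proteoglycan of the extracellular matrix, and had levels of 9.15, 9.09, 8.74, 8.59 and 9.36 in cbp+/- replicates 1 to 5, against 9.54, 9.65, 9.0, 8.79 and 9.68 in wild-type replicates 1 to 5. Every cbp+/- array was below its partner, by 0.20 to 0.56 in size, and the groups overlapped. The difference was -0.35 ± 0.07 (95% interval -0.50 to -0.20, adjusted p = 0.464 with limma), a level of 0.786 times wild type. Dcn is also a marker of meninges and fibroblasts, and the other 8 measured markers of that list did not share its sign as a group: over the 9 genes 5 differences were positive and 4 negative, and Igf2 (0.37 ± 0.16) and Slc22a6 (0.22 ± 0.07) were on the positive side. Il33, a cytokine released from damaged cells that resides in the nucleus, differed by -0.43 ± 0.10. Its levels were 7.55, 7.18, 6.98, 6.64 and 7.53 in cbp+/- replicates 1 to 5, against 8.0, 7.84, 7.26, 7.23 and 7.71 in wild-type replicates 1 to 5, so that the groups overlapped while all 5 pairs had the same sign.

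Another 3 secreted factors were lower in all 5 pairs. Ccl3, a chemokine of microglia and macrophages, differed by -0.38 ± 0.08, with -0.75 in pair 2 and -0.38 to -0.23 in the others. Vegfd, a vascular growth factor, differed by -0.37 ± 0.09. Plau, the urokinase-type plasminogen activator, had levels of 4.56, 4.70, 4.50, 4.69 and 4.68 in cbp+/- replicates 1 to 5, against 4.81, 4.95, 4.96, 5.03 and 4.84 in wild-type replicates 1 to 5. The Plau groups did not overlap, and the difference was -0.29 ± 0.07 (adjusted p = 0.677 with limma).

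The other named lower genes had varied roles. Cacna1g, the T-type calcium channel Cav3.1, had levels of 6.61, 6.40, 7.25, 6.96 and 6.09 in cbp+/- replicates 1 to 5, against 6.87, 6.82, 7.29, 7.26 and 6.64 in wild-type replicates 1 to 5. Its difference was -0.32 ± 0.07, smallest in pair 3 at -0.05. Nos1, the neuronal nitric oxide synthase, differed by -0.34 ± 0.08 and was likewise nearest to 0 in pair 3 (-0.11). Pde11a, a phosphodiesterase of cAMP and cGMP, differed by -0.30 ± 0.07, with vehicle pairs at -0.19 and naive pairs at -0.46. Stac2, an adaptor of voltage-gated calcium channels, differed by -0.27 ± 0.06, and Parm1, a mucin-like membrane protein, by -0.32 ± 0.07. Rasgef1a, a Ras exchange factor, had cbp+/- levels of 9.04 to 9.25 and wild-type levels of 9.28 to 9.54, without overlap, and a difference of -0.25 ± 0.06. Bfsp2, a beaded filament protein known from the lens, had levels of 5.08, 5.04, 4.82, 5.16 and 4.98 in cbp+/- replicates 1 to 5, against 5.31, 5.22, 5.29, 5.37 and 5.33 in wild-type replicates 1 to 5. Its groups did not overlap, and the difference was -0.29 ± 0.06 (adjusted p = 0.537 with limma).

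The 18 arrays of the other 3 conditions share no array with the controls and gave a second measurement of the same genes. There, 19 genes (0.0953%) passed an adjusted p of 0.05 with limma, 2 higher and 17 lower, and 1990 genes (9.98%) had p under 0.05 before adjustment, 851 higher (4.27%) and 1139 lower (5.71%). This count rested on single pairs: it was 0 without any 1 of 5 pairs (TSA cage pairs 2 and 3, novelty vehicle pairs 2 and 3, novelty TSA pair 3), 2 without novelty vehicle pair 1, 6 without novelty TSA pair 2, and 4, 5 and 6 without control pairs 5, 1 and 4, which share the estimate of the spread. Without the replicate block it was 0 as well. All 19 genes had the same sign in the controls, against 53.4% of all genes. Of the 19, 15 had 1 sign in all 5 control pairs. Over all genes, 3.64% were higher and 3.65% were lower in all 5 control pairs. In the controls 15 of the 19 had p under 0.05 before adjustment, against 3.56% of all genes. That p-value rests on the same estimate of the spread. The 2 higher genes were Nlrp5-ps, at 0.48 ± 0.07 in these arrays and higher in 9 of 9 pairs, and Zc3hav1, at 0.26 ± 0.05 and higher in 9 of 9 pairs. Their adjusted p-values there were 0.0253 and 0.0396 with limma.

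Of the 17 lower genes, Wfs1, the endoplasmic reticulum protein wolframin and a marker of CA1 pyramidal neurons, had the largest fall. In the controls Wfs1 had levels of 7.47, 7.50, 8.32, 7.92 and 7.57 in cbp+/- replicates 1 to 5, against 7.67, 7.73, 8.65, 8.39 and 7.90 in wild-type replicates 1 to 5. Each cbp+/- array was below its partner while the groups overlapped, and the difference was -0.31 ± 0.09 in controls and -0.44 ± 0.07 in the other conditions (adjusted p = 0.0253 with limma). Igfbp4, a binding protein of insulin-like growth factors, differed by -0.39 ± 0.10 in controls and by -0.39 ± 0.07 elsewhere (adjusted p = 0.04 with limma). Rem2, a small GTPase that inhibits voltage-gated calcium channels, differed by -0.41 ± 0.08 elsewhere (adjusted p = 0.0488 with limma) and by -0.12 ± 0.10 in controls, an interval that included 0. Psrc1, which encodes a microtubule-binding protein and was picked here after its values were seen, was the 1 gene of the 19 besides Bfsp2 whose control groups did not overlap, with 6.04 to 6.27 in cbp+/- and 6.29 to 6.52 in wild type. Dcn, Bfsp2 and Cacna1g were among both the 17 genes and the 12 named lower genes.

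**Figure D3:**
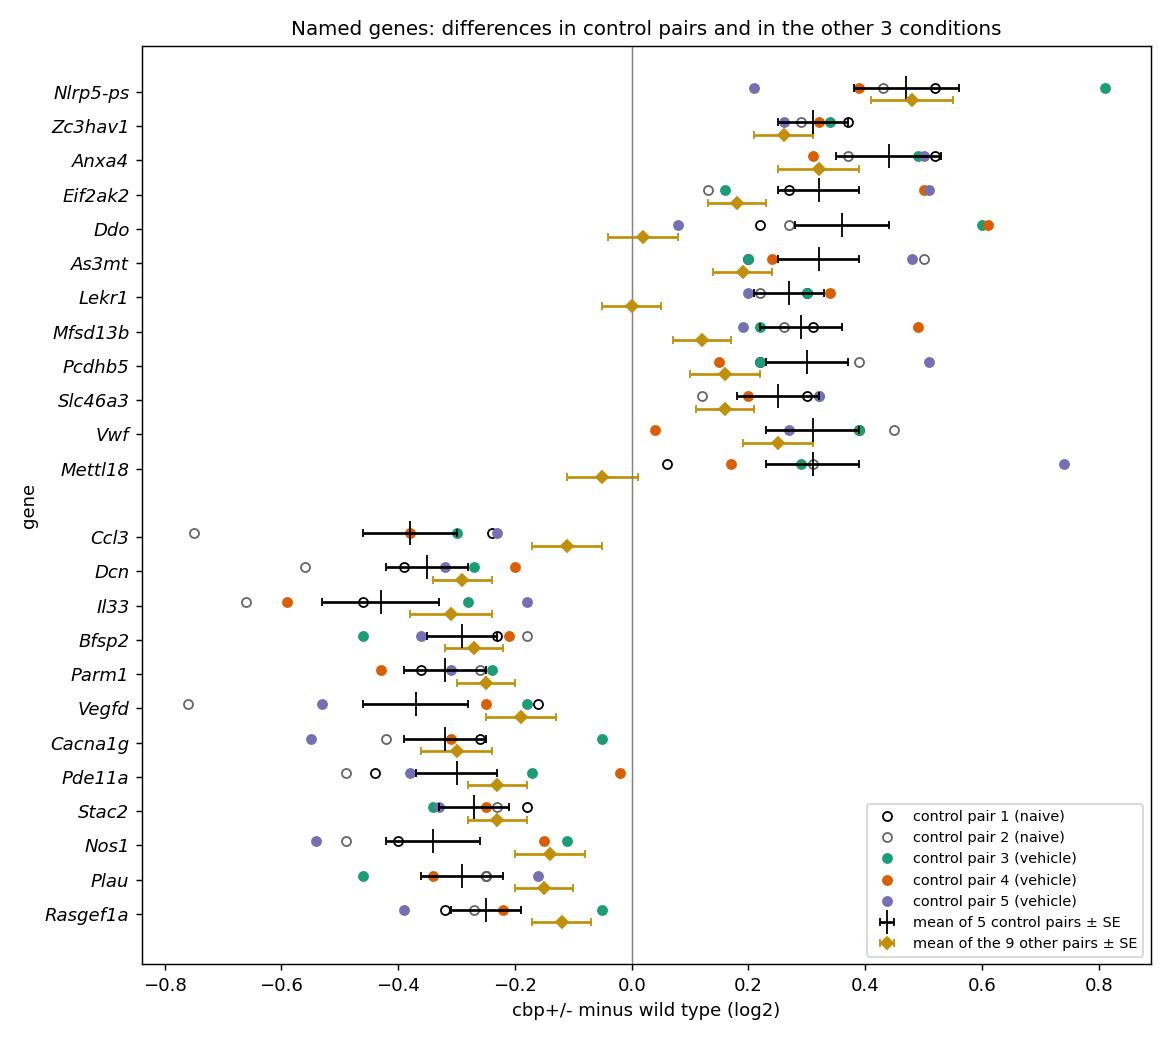
Differences of the 24 named genes (cbp+/- minus wild type, log2, x axis) in each control pair (circles, open for naive pairs), their mean ± SE over 5 control pairs (black bars) and the mean ± SE over the 9 pairs of the other 3 conditions (diamonds). The control circles of a gene lie on 1 side of 0 by the naming rule, and the diamonds of Ddo, Lekr1 and Mettl18 lie at 0.02, 0.00 and -0.05.

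Of the 24 named genes, 22 kept their sign in the other conditions, 20 with p under 0.05 before adjustment. Both comparisons use the same estimate of each gene's spread. Genes with a small p in controls therefore tend to have a small p elsewhere too, which does not affect the signs. Over all 19938 genes the control sign recurred for 53.4%, with p under 0.05 for 6.38%. Over the 709 genes with p under 0.05 in controls it recurred for 74.3%, with p under 0.05 for 25.7%. The lower genes among them recurred for 82.2% and the higher genes for 65.2%. All 12 named lower genes kept their sign, at a median of -0.23 elsewhere against -0.32 in controls, and all but Ccl3 did so with p under 0.05 before adjustment. Among the named higher genes, Ddo (0.02 ± 0.06), Lekr1 (0.00 ± 0.05) and Mettl18 (-0.05 ± 0.06) were close to 0 elsewhere. The difference between controls and the other conditions was tested directly, and 0 genes (0%) passed an adjusted p of 0.05 with limma, while 636 (3.19%) had p under 0.05 before adjustment. It was 0.34 ± 0.10 for Ddo, 0.28 ± 0.08 for Lekr1 and 0.37 ± 0.11 for Mettl18, each with an adjusted p of 0.999 with limma.

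**Figure D4:**
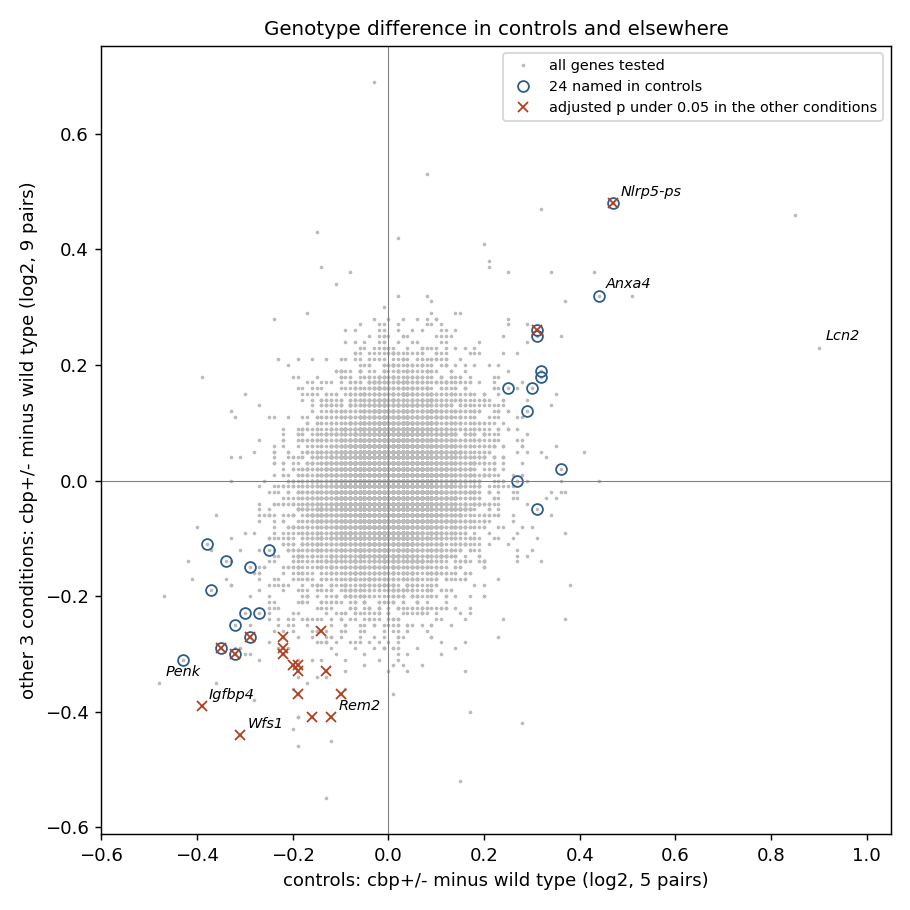
Difference between cbp+/- and wild type for each of the 19938 genes in the 5 control pairs (x axis, log2) and in the 9 pairs of the other 3 conditions (y axis, log2). Circles mark the 24 named genes and crosses the 19 genes with an adjusted p under 0.05 in the other conditions, all of which lie in the quadrants of equal sign.

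The naive and vehicle controls were also compared, since they make up each group together. The genotype difference of the 3 vehicle pairs minus that of the 2 naive pairs passed an adjusted p of 0.05 for 0 genes (0%) with limma, and 1568 genes (7.86%) had p under 0.05 before adjustment. With weights for array quality 155 genes passed, 62 with a larger and 93 with a smaller value in vehicle pairs. Within vehicle pairs alone and within naive pairs alone, 0 genes passed with limma, while 1153 (5.78%) and 1046 genes (5.25%) were under 0.05 before adjustment. Nlrp5-ps (0.47 and 0.48), Zc3hav1 (0.31 and 0.33) and Anxa4 (0.44 and 0.44) had close values in vehicle and naive pairs, and Dcn was at -0.26 and -0.47.

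Downstream of CREB, none of the target genes passed the test. Penk, which encodes the opioid precursor proenkephalin, had the lowest difference of all 19938 genes. Its levels were 8.16, 8.35, 8.34, 7.73 and 8.64 in cbp+/- replicates 1 to 5, against 8.86, 9.13, 8.60, 7.97 and 9.04 in wild-type replicates 1 to 5. All 5 pairs had the same sign, with means of -0.30 over vehicle pairs and -0.74 over naive pairs, and the groups overlapped. The difference was -0.48 ± 0.19 (95% interval -0.88 to -0.07, adjusted p = 1 with limma), a level of 0.718 times wild type. Pcsk1, the convertase that cleaves prohormones and whose promoter window holds the palindrome shown above, differed by -0.15 ± 0.07, and Rgs2, a regulator of G-protein signalling, by -0.22 ± 0.08. Rgs2 was at 0.08 ± 0.06 in the other conditions, higher in 7 of 9 pairs. Vgf, a neuropeptide precursor, differed by -0.17 ± 0.08, while Sst, the somatostatin gene whose window also holds it, was at -0.05 ± 0.07. Of the 25 CREB targets, 18 differences were negative and 7 positive, and the median was -0.02, where all genes had 9463 negative and 10475 positive differences. Of the 25, 3 were lower with p under 0.05 before adjustment, against 1.91% of all genes.

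Genes induced by neuronal activity were mostly negative in sign, and none passed the test. Of 26 activity-induced effectors, 22 differences were negative and 4 positive with a median of -0.03, against 9463 negative and 10475 positive differences over all genes. Rgs2, Dio2, the deiodinase that activates thyroid hormone (-0.19 ± 0.08, or -0.11 without pair 1), and Pcsk1 were lower with p under 0.05 before adjustment, and Ccn1, a matricellular protein, was at -0.30 ± 0.15 with -1.06 in pair 5. Rgs2, Pcsk1, Bdnf, Nrn1, Sik1 and Gpr3 are in both the effector list and the CREB target list, so these lists are not independent. Of 27 immediate early transcription factors, 16 differences were negative, none had p under 0.05, and they ran from -0.15 to 0.09 with a median of -0.03. Egr3 (-0.14 ± 0.08), Btg2 (-0.15 ± 0.08) and Jun (-0.13 ± 0.07) had the smallest p-values of that list. In the other 3 conditions the effectors had a median of -0.07 and the early factors one of -0.08.

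Upstream of CREB, 14 of 18 kinase and cyclase genes had negative differences, with a median of -0.03. Over all genes 9463 differences were negative and 10475 positive. Camkk2, which activates CaMKIV, differed by -0.18 ± 0.06 and was lower in all 5 pairs (adjusted p = 1 with limma), and it differed by -0.16 ± 0.05 in the other conditions. Camk4, the gene of CaMKIV itself, was at -0.14 ± 0.08 in controls and -0.01 ± 0.06 elsewhere. The 15 genes of the CREB family and its coactivators had a median of 0.00, and Crtc3, a CREB-regulated coactivator, was at 0.13 ± 0.08.

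Among other chromatin enzymes no gene passed the test. The 18 histone deacetylases and sirtuins ran from -0.13 to 0.16 with a median of 0.02, and none had p under 0.05 before adjustment. Hdac3, a class I deacetylase, was at 0.13 ± 0.08. The 27 histone methyltransferases and demethylases had a median of 0.00. Kmt5a, which methylates histone H4, was at -0.15 ± 0.06, lower in all 5 pairs.

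Receptor genes were mostly negative in sign, where all genes had 9463 negative and 10475 positive differences, and none passed the test. Of 20 glutamate receptor subunits 17 were negative with a median of -0.02, and Grik3, a kainate receptor subunit, was at -0.23 ± 0.09 in controls, at -0.14 without pair 5, and at -0.25 ± 0.07 elsewhere. Of 11 GABA receptor subunits 10 were negative with a median of -0.04. Gabrg1 differed by -0.42 ± 0.14, with -0.05, -0.22 and -0.38 in vehicle pairs 3 to 5 and -0.63 and -0.82 in the naive pairs. Without replicate 3 both medians were lower, at -0.05 and -0.06.

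Genes of stress responses and the circadian clock were examined next. The 18 heat shock and chaperone genes had a median of 0.02, and Sdf2l1, of the endoplasmic reticulum, was at 0.32 ± 0.09 and higher in all 5 pairs, and at -0.14 ± 0.07 in the other conditions. The 18 glucocorticoid-induced genes had a median of -0.01, and the 18 clock genes one of -0.01, where Hlf, a clock-controlled transcription factor, was at -0.16 ± 0.07. Lcn2, the iron-binding protein lipocalin-2, had the highest difference of all genes, 0.90 ± 0.33, and 1 array carried it. Its level was 4.40, 4.03, 3.99, 3.87 and 7.06 in cbp+/- replicates 1 to 5, against 3.59, 3.82, 3.91, 3.62 and 3.90 in wild-type replicates 1 to 5, so that pair 5 differed by 3.16 and the others by 0.08 to 0.81.

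Markers of hippocampal cell types gave the following values, where all genes had 9463 negative and 10475 positive differences. In bulk tissue, fewer cells of a type and less RNA per cell cannot be told apart. Of the 6 CA1 markers 5 were negative with a median of -0.07, and Wfs1 alone had p under 0.05. In the other conditions the CA1 median was -0.16, negative in each of the 9 pairs. There 3 of the 6 markers, Wfs1 included, were lower with p under 0.05 before adjustment, against 5.71% of all genes. The 7 CA3 markers had a median of -0.02. Of the 9 dentate granule markers 7 were negative with a median of -0.03. Tdo2 (-0.31 ± 0.09) and Trpc6 (-0.28 ± 0.09) were lower in all 5 pairs, but Lct was at 0.18 ± 0.08, so the list held both signs. Sox11, a transcription factor of immature neurons, had levels of 6.60, 6.47, 6.99, 6.64 and 6.36 in cbp+/- replicates 1 to 5, against 7.09, 7.19, 6.85, 6.99 and 6.96 in wild-type replicates 1 to 5. It was below its partner in every pair but pair 3, with a difference of -0.40 ± 0.11, while the 10 markers of immature neurons and progenitors had a median of -0.02, and Sox11 was at -0.08 ± 0.08 elsewhere. The 10 interneuron markers had a median of -0.03.

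Some glial lists differed from the rest in single pairs. Of the 10 astrocyte markers 8 were negative with a median of -0.03, led by Gfap (-0.19 ± 0.10) and Gja1 (-0.13 ± 0.07), and the median was -0.13 in the other conditions. There 5 of the 10 astrocyte markers were lower with p under 0.05 before adjustment and 0 higher, against 5.71% and 4.27% of all genes. The 9 oligodendrocyte markers had a median of -0.08, which was 0.02 without pair 4, where their mean differed by -0.46. Opalin, a myelin protein, was at -0.33 ± 0.11 in controls and at 0.00 ± 0.08 in the other conditions. The 5 precursor markers had a median of -0.06, the 10 endothelial and pericyte markers one of -0.01, and the 9 microglial markers one of 0.05, which was 0.00 without pair 5, the pair in which Lcn2 and the microglial marker Aif1 (0.63) also had their highest values. Vwf, Ccl3 and Il33 were named above, and the part of cell composition in their values was not tested.

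Markers of tissue next to the hippocampus were uneven. All 10 choroid plexus markers were positive with a median of 0.35, and the median was -0.03 without replicate 3. Ttr, the transthyretin gene of the choroid plexus, was at 12.60 in cbp+/- replicate 3, against 7.48 in wild-type replicate 3. Otx2, its transcription factor, was at 5.39 against 4.20 in the same pair. The 9 markers of meninges and fibroblasts had a median of 0.01, and the 8 markers of striatum and thalamus one of -0.02, of which Drd1, a dopamine receptor, was at -0.19 ± 0.08 and at -0.10 without pair 3. The single red blood cell gene measured, Alas2, was at 0.29 ± 0.14 and at 0.12 without pair 1, and the 3 Y-linked genes had a median of -0.03. Leaving out the array with raised choroid plexus markers and its partner could not turn a sign among the 24 named genes. They had been chosen for 1 sign in all 5 pairs. Without replicate 3 the named higher genes had a median of 0.32 and the named lower genes one of -0.35. With all pairs these medians were 0.31 and -0.32.

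**Figure D5:**
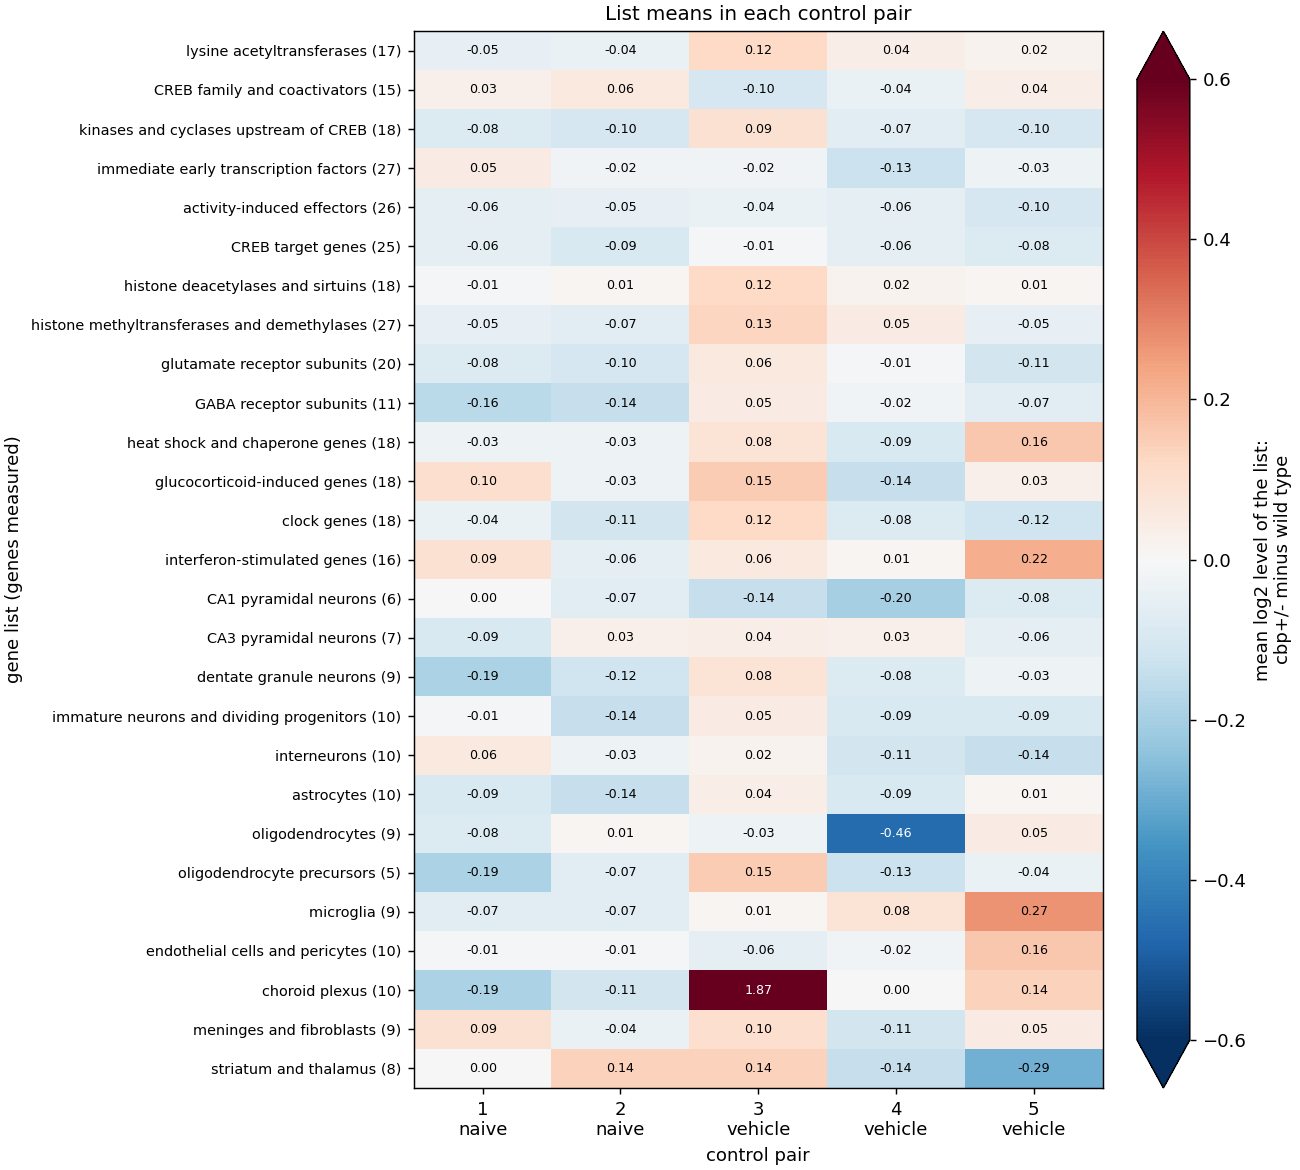
Mean level of the gene lists, cbp+/- minus wild type (log2, colour and number), in each of the 5 control pairs, with the number of genes measured in brackets. The colour scale ends at 0.6. Of the lists drawn, the choroid plexus list in pair 3 (1.87) and the oligodendrocyte list in pair 4 (-0.46) lie farthest from 0, and the single red blood cell gene, which is not drawn, was at 0.94 in pair 1.

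The protocadherin beta genes form a cluster of neighbouring, closely related genes for neuronal cell adhesion, and they were chosen here after their values were seen, because Pcdhb5 was a named gene. Of 22 measured, 20 had positive differences, from -0.02 to 0.51 with a median of 0.17, against 0.00 over all genes, and 7 were higher with p under 0.05 before adjustment, against 1.65% of all genes. Pcdhb5 had levels of 6.62, 6.41, 5.83, 6.06 and 6.48 in cbp+/- replicates 1 to 5, against 6.40, 6.02, 5.61, 5.91 and 5.96 in wild-type replicates 1 to 5, a difference of 0.30 ± 0.07. Pcdhb2 differed by 0.43 ± 0.13 and Pcdhb3 by 0.32 ± 0.13, both higher in all 5 pairs. The list medians of the pairs were not even: pair 1 was at -0.05 and pair 5 at 0.29. In the other conditions the median was 0.17, 12 of the 22 were higher with p under 0.05 before adjustment (4.27% of all genes were), and the list median was positive in 8 of 9 pairs. These genes have closely related copies, so probes may read several of them at once, which was not tested, and their values are uncertain.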

How the data were processed

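The deposited values were log2 expression values of 35556 transcript clusters on 28 Affymetrix Mouse Gene 1.0 ST arrays of hippocampal total RNA. The authors ran RMA, per the submitters' processing notes, and GeneSpring GX 11, per the labels' protocols. RMA corrects background, equalizes array distributions and summarizes probes, so a change common to nearly every transcript would be removed. The genome build of the array annotation is not named in these sources.

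The platform table gave 1 symbol for 21789 clusters, several for 1621 and none for 12146. The brightest cluster was kept for 999 genes with more than 1, which left 19938 genes. The 13767 clusters without 1 symbol were tested apart, and 0 passed in controls, with 403 (2.93%) at an unadjusted p under 0.05. Promoters and gene order came from RefSeq on GRCm38.p6.

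Arrays of the same condition and replicate number formed 14 pairs. Same-numbered control arrays deviated together from their group means (r of 0.44 to 0.70 in 5 pairs, -0.38 to 0.51 for other numbers, where the highest values joined the naive arrays). In the other conditions r was 0.52 to 0.70 for same numbers (9 pairs) and -0.58 to -0.10 otherwise. The difference of each pair was tested with limma 3.58.1 in R 4.3.3, in 1 fit of all 14 pairs with 10 residual degrees of freedom, two-sided, with Benjamini-Hochberg adjustment over all genes and a threshold of 0.05. Each array is a pool, so the p-values measure the spread between pools, and the number of arrays limits the precision. The fit was tested on simulated data with 200 changed genes in the controls and noise drawn independently for each gene. Of changes of 0.3 log2 it recovered 14% past the threshold, of 0.5 log2 80.5%, and of 1 log2 100%. Most true changes of 0.3 log2 would thus be missed. Named genes were up to 12 per direction past the threshold with 1 sign in all 5 control pairs, filled with those of smallest p, predicted genes left out. Up to 3 per direction past the threshold were added from the other comparisons, with Crebbp, Ep300, the neighbours of Crebbp and up to 4 genes per list. The members, lists and rules were chosen with earlier results of these data known. Alternatives were the block, the arrays used, dim genes, normalization, weights, variance priors and leaving out each pair.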

Additional observations from a re-analysis of the deposited data

Results flagged for a closer look

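In 162 groups of 5 arrays (named genes and marker lists, by genotype), 10 arrays lay apart from the other 4 by more than 0.71 of the group's range, and chance gives about 1 in 20 groups. cbp+/- control replicate 3 was the array in 4 of these: the mean level of the choroid plexus markers was 6.99 (others 5.07 to 5.57), that of the oligodendrocyte precursor markers was 7.45 (others 6.98 to 7.11), Otx2 was at 5.39 (others 3.99 to 4.32) and Parm1 at 8.21 (others 7.74 to 7.84). Choroid plexus markers were also raised in wild-type control replicate 1, at 5.76 (others 5.08 to 5.25).

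In cbp+/- control replicate 5, Lcn2 was at 7.06 (others 3.87 to 4.40) and Gtf3c4 at 7.15 (others 7.49 to 7.54). Igfbp4 was at 8.69 in wild-type control replicate 3 (others 7.93 to 8.13). The markers of meninges and fibroblasts averaged 6.14 in cbp+/- control replicate 4 (others 6.29 to 6.35) and 6.39 in wild-type control replicate 2 (others 6.20 to 6.25).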

How the results depend on the processing

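In the controls the count of genes past the threshold was 0 under all 18 alternatives, with 203 to 1486 genes at an unadjusted p under 0.05, and the lowest adjusted p was 0.0556 without replicate 3 and 0.0607 with array quality weights. Without the replicate block ("no replicate block") the lowest adjusted p in controls was 1 and 16 of the 24 named genes had an unadjusted p under 0.05. Their direction held in all 422 values recomputed. These genes had been chosen for the same sign in every control pair, so settings that average those pair differences could not turn it. A repeated quantile normalization recomputed the levels, so there the sign was free to turn. The mean of all transcript clusters changes only the 999 genes with more than 1 cluster. For genes with 1 cluster it returned the same levels, so there the sign could not turn. Eif2ak2, Lekr1, Mettl18 and Pde11a moved by over 1.5 times, to 0.20 to 0.39, 0.09 to 0.29, 0.18 to 0.40 and -0.46 to -0.19. The difference of Crebbp stayed between 0.07 and 0.14. Ep300 was at -0.11 with only naive pairs and at -0.02 to 0.06 with 1 pair left out, and Lct was at -0.03 with only naive pairs; the cause was not tested.

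For vehicle against naive controls, array quality weights gave 155 genes instead of 0. In the other 3 conditions the count of 19 became 0 without the replicate block, 79 with array set as a block, 33 without dim genes and 32 after a second quantile normalization. The array set was assumed here from injection and replicate number and is not a recorded batch. Naive arrays formed 1 set, and vehicle controls joined the other conditions in order of replicate number. The count was 4 to 14 without 1 control pair and 0 to 28 without 1 of the other pairs, an alternative added after seeing the data. Over all these settings the 19 genes kept their sign wherever they were tested. Most of these genes had the same sign in every pair of those conditions, so settings that average the pairs could not turn it. The difference between controls and the other conditions stayed at 0 genes. Low levels, where fold changes shrink, limit 10 of the 24 named genes, whose mean over all arrays was under 6 (Zc3hav1, Anxa4, Eif2ak2, Ddo, Lekr1, Mfsd13b, Mettl18, Ccl3, Bfsp2 and Plau), so the fit without dim genes tested the other 14. The values without 1 pair for the lists and their genes were added after seeing the data.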
